A study of Mus musculus with 15 samples.

Results

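The genes described are 35 genes of cholesterol and fatty acid synthesis and of lipid export and uptake, read in sorted astroglia of the adult mouse brain. They were chosen by gene symbol, with 1 probe set per gene, the one with the highest mean level over all 15 arrays, and 34 of them were measured among 18193 genes in all. Acat2 had no probe set listed under its symbol alone and was not analysed here. The measured genes were 6 of the mevalonate step, 10 of the sterol step, 4 regulators, 10 of fatty acid synthesis and 4 of export and uptake.

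The cells came from 3 brain regions of male mice 6 to 8 weeks old, the subventricular zone (SVZ), hippocampus and cerebellum, with 5 arrays per region. All mice had the genotype Gli1-CreER;GFAP-GFP;R26tdTomato, in which Gli1, a gene switched on by Sonic hedgehog, drives a tamoxifen-dependent recombinase that turns on the red reporter tdTomato, and the astroglial GFAP promoter drives a green reporter. All received 2 doses of 10 mg tamoxifen, and cells positive for both reporters were sorted 3 weeks later, with the cells of 10 to 12 mice pooled for each array. SVZ and hippocampus are the stem cell regions of the adult brain and were each compared with cerebellum, so stem cell presence and brain region cannot be told apart. The label marks cells that were active for Gli1 when tamoxifen was given, and Gli1 itself had a mean log2 signal of 2.80 ± 1.31 on the SVZ arrays, 2.83 ± 1.91 on the hippocampus arrays and 3.17 ± 0.35 on the cerebellum arrays (SD, n = 5 each). Of 8 astrocyte markers measured, 0 were under a level of 2 on all arrays of a region, and Gfap averaged 4.51 ± 1.06 in SVZ, 6.93 ± 0.63 in hippocampus and 4.99 ± 1.23 in cerebellum.

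Cholesterol is built from acetyl-CoA through mevalonate and squalene, and brain cells make their own because lipoprotein cholesterol of the blood does not cross the blood-brain barrier. In the adult brain astrocytes are a main source: they load cholesterol onto ApoE particles through the transporter ABCA1 and pass it to neurons. The transcription factors SREBP, held in the endoplasmic reticulum by INSIG and escorted out by SCAP when sterols are low, switch on the synthesis genes, whereas the liver X receptors (LXR) sense oxidised sterols and switch on export.

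The promoters of Abca1, the member that was higher in SVZ, and of Hmgcs1, an SREBP target at the head of the pathway, are shown because each carries the letters of a textbook lipid-sensing element. They are the 250 bases before the gene start, taken from RefSeq on build GRCm38.p6, at chr4:53159896-53160145 on the minus strand for Abca1 and at chr13:119690101-119690350 on the plus strand for Hmgcs1. Capitals mark a direct repeat of the LXR kind in Abca1, from base -67 to base -53, written there on the opposite strand. In Hmgcs1 capitals mark a sterol regulatory element from -137 to -129 and, read on the opposite strand, CCAAT boxes that begin at -237, -176 and -45.
Abca1: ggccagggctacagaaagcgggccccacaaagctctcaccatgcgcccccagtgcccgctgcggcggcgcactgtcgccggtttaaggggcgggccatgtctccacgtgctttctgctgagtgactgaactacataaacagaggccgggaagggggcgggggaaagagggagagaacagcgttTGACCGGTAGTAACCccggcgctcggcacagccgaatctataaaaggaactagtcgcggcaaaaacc
Hmgcs1: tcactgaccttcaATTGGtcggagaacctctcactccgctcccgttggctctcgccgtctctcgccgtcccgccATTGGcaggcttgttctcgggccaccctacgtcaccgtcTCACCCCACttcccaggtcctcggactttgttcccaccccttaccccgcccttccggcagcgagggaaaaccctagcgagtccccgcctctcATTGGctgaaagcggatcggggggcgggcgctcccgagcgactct

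A promoter was listed for 27 of the 35 genes, and 3 motifs were searched in it on both strands. The sterol regulatory element, TCACNCCAC, was in 1 of these 27, Hmgcs1, and in 1.22% of all 27025 genes with a listed promoter. The repeat of the LXR kind, GGTNA followed after 5 bases by GGTNA again, was in 3 of the 27, Abca1, Srebf1 and Fasn, against 0.707% of all. The CCAAT box, bound by NF-Y, which works beside SREBP at sterol genes, was in 19 of the 27 (70.4%), against 37.5% of all genes. It was in 13 of the 14 promoters of the mevalonate and sterol steps, in 3 of 7 for fatty acid synthesis and in 0 of 2 for export and uptake. These counts describe letters in a window and not binding.

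Levels are the deposited log2 signals. The array medians lay between 1.12 and 1.31, so a level under 2 is close to the background of the array, and 5 of the measured genes (Abcg1, Ebp, Fdps, Lpl, Scap) had a mean of at most 3. These medians are low for values of this kind, and a further background or scaling step, not given in the sources used here, could alter the size of the differences. Arrays of cerebellum resembled each other more (r across genes 0.939 to 0.970) than those of SVZ (0.763 to 0.894) or hippocampus (0.791 to 0.884). The median SD of the lipid genes between arrays was likewise 0.82 in SVZ, 0.72 in hippocampus and 0.47 in cerebellum. Probe sets that read above 3 made up 15.14% to 19.5% in SVZ, 15.25% to 19.79% in hippocampus and 20.14% to 22.45% in cerebellum. The mean of the poly-A spike-ins was 12.59 ± 0.86 for SVZ, 12.47 ± 0.57 for hippocampus and 10.30 ± 1.64 for cerebellum (SD, n = 5), lowest on cerebellum arrays 4 and 5. Differences are log2 values of the first region minus the second, of 5 arrays each. Their SE is from the limma fit over all 15 arrays, in which the spread of a gene is shared by all regions. Adjusted p values are from limma with Benjamini-Hochberg adjustment over all genes.

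Few of these genes passed the test in any comparison. In SVZ against cerebellum 1 of 34 passed an adjusted p under 0.05 upward (Abca1, the cholesterol exporter) and 0 downward, where 1.03% of all genes passed upward and 4.47% downward, and 2.35% and 9.99% of the genes with a mean level above 3. In hippocampus against cerebellum 0 passed upward and 1 downward (Scd2, a stearoyl-CoA desaturase), where 0.808% and 3.97% of all genes did, and 1.76% and 9.14% of those above 3. In SVZ against hippocampus 0 passed either way, against 0.0165% of all genes upward and 0.0055% downward, or 0.0623% and 0.0208% of those above 3. A single gene of 34 is 2.94%, so counts this small cannot show whether the lipid genes differ from these shares.

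At an unadjusted p under 0.05 there were more of them, mostly upward in SVZ. SVZ against cerebellum had 7 upward (Abca1, Apoe, Hmgcs1, Hsd17b7, Idi1, Msmo1, Mvd) and 3 downward (Ebp, Fads1, Scd2), where 7.55% of all genes were upward and 13.6% downward. Among genes above 3 these were 7 and 2 of 29 lipid genes, against 5.83% upward and 31.6% downward in general. Hippocampus against cerebellum had 4 upward (Abca1, Apoe, Hmgcs1, Idi1) and 4 downward (Acsbg1, Fads1, Scd1, Scd2), where 7.55% and 12.6% of all genes were, and 4.05% and 29.4% of those above 3. SVZ against hippocampus had 2 upward (Abca1, Hsd17b7) and 1 downward (Elovl6), where 3.53% and 3.49% of all genes were, and 6.17% and 5.36% of those above 3. The series design asked for a change of over 4-fold with an unadjusted p under 0.01, and 0 of the 34 met this in any of the 3 comparisons. Of all genes 0.66% met it upward and 2.55% downward in SVZ, 0.423% and 2.45% in hippocampus, each against cerebellum, and 0.159% and 0.198% in SVZ against hippocampus.

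The median difference of the 34 genes was 0.20 in SVZ against cerebellum and 0.17 in hippocampus against cerebellum, where the median of all genes was 0.068 in both. With quantile normalization the 34 genes stood at 0.63 and 0.58, and with each array left out at 0.076 to 0.34 in SVZ and 0.10 to 0.34 in hippocampus. For the 4816 genes whose mean level exceeded 3 it was -0.72 in SVZ and -0.70 in hippocampus against cerebellum. In SVZ against hippocampus the lipid genes had a median of 0.16, all genes one of -0.004 and genes above 3 one of 0.055. Both comparisons with cerebellum share the same 5 cerebellum arrays.

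**Figure D1:**
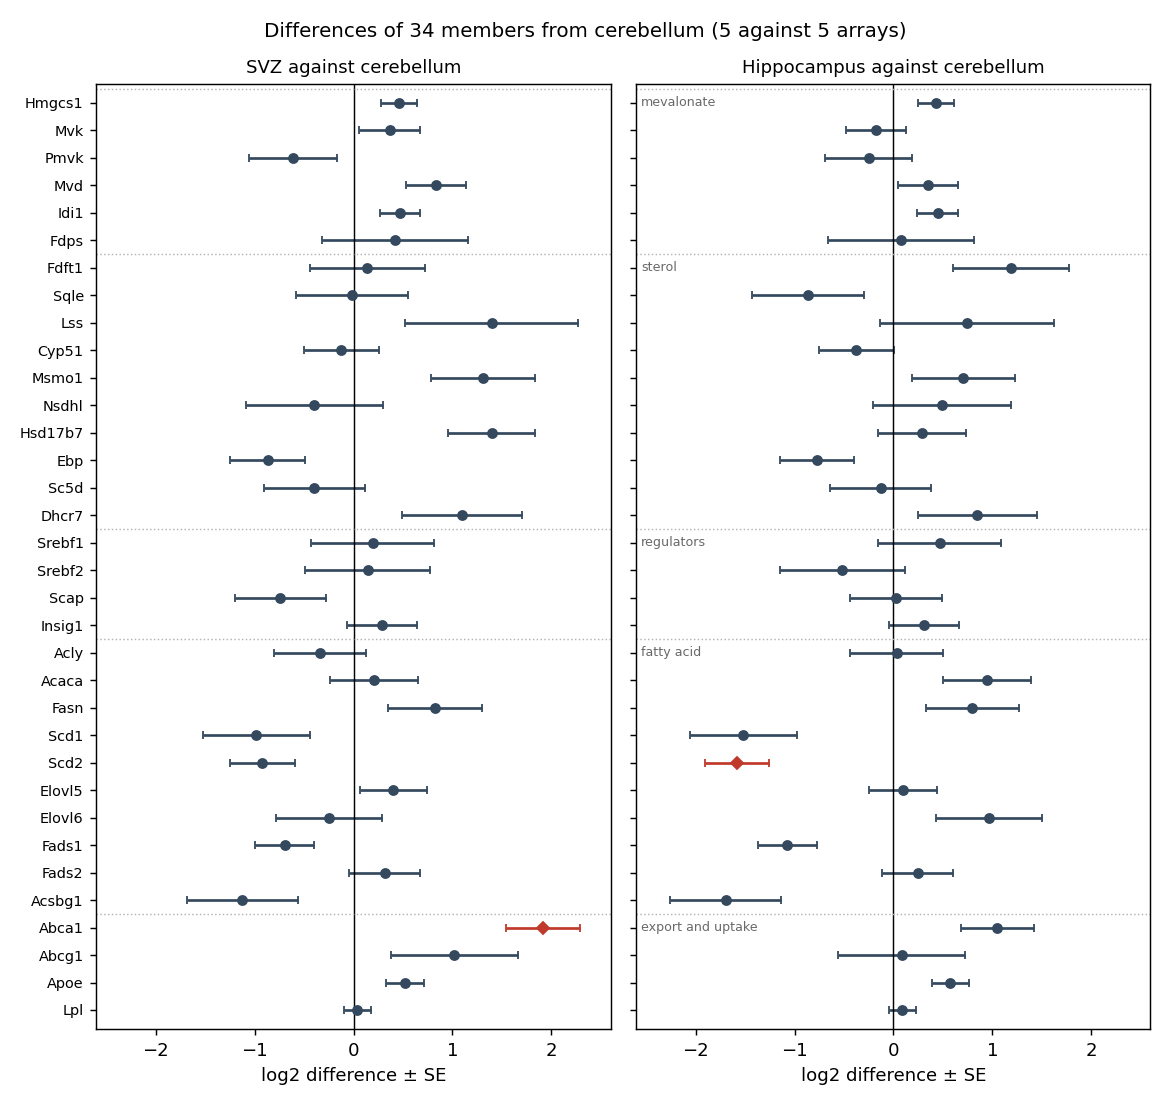
Log2 difference (horizontal axis) of each of the 34 measured genes in SVZ (left) and hippocampus (right) against cerebellum, with bars of 1 SE from the limma fit on 5 against 5 arrays and dotted lines between steps. Red diamonds mark the adjusted p values under 0.05, Abca1 at 1.92 in SVZ and Scd2 at -1.58 in hippocampus, and all other genes are dark circles.

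The mevalonate step, from acetyl-CoA to farnesyl diphosphate, passed in 0 of 6 genes in every comparison. Hmgcs1, the synthase that makes HMG-CoA, read 10.40, 10.43, 10.51, 10.72 and 10.01 on SVZ arrays 1 to 5. On the hippocampus arrays it read 10.34, 10.05, 10.22, 10.83 and 10.49, and on the cerebellum arrays 9.96, 10.03, 9.54, 10.14 and 10.12. It was high in every pool, with cerebellum 3 the lowest array, and both forebrain regions overlapped cerebellum. The difference was 0.46 ± 0.18 for SVZ (adjusted p = 0.170) and 0.43 ± 0.18 for hippocampus (adjusted p = 0.208), each against cerebellum. The second Hmgcs1 probe set by mean level differed by -1.05 in SVZ against cerebellum, the opposite direction (adjusted p over all probe sets = 0.0762), and the mean of its 5 probe sets differed by -0.014.

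Idi1, the isopentenyl diphosphate isomerase, read 7.41, 7.02, 7.70, 7.10 and 7.06 in SVZ, 7.01, 6.73, 7.69, 7.02 and 7.72 in hippocampus, against 6.79, 6.84, 6.78, 6.65 and 6.88 in cerebellum. All SVZ arrays lay above all cerebellum arrays, while hippocampus 2 lay among the cerebellum arrays. The differences against cerebellum were 0.47 ± 0.20 for SVZ (adjusted p = 0.206) and 0.45 ± 0.20 for hippocampus (adjusted p = 0.241), and neither passed. The second Idi1 probe set had nearly the same mean level, 7.088 against 7.093, and both regions overlapped cerebellum on it. It differed by 0.44 ± 0.44 in SVZ and by 0.044 ± 0.44 in hippocampus (adjusted p over all probe sets 0.603 and 0.962). Of the 34 genes, 2 (Abca1, Idi1) lay wholly above cerebellum in SVZ and 1 (Scd1) wholly below, where 2.6% and 6.02% of all genes did. In hippocampus against cerebellum 0 did, where 2.68% of all genes were wholly above and 5.3% wholly below, and in SVZ against hippocampus 0 did, where 0.374% and 0.44% were.

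Mvd, the mevalonate diphosphate decarboxylase, read 4.07, 4.39, 3.04, 4.19 and 3.95 in SVZ, 4.09, 2.99, 2.86, 3.86 and 3.41 in hippocampus, against 2.50, 3.57, 2.97, 3.40 and 3.03 in cerebellum. Only SVZ 3 overlapped the cerebellum arrays among those of SVZ. The SVZ difference of 0.83 ± 0.30 did not pass (adjusted p = 0.133). It was 1.06 without SVZ 3 (adjusted p = 0.0455), and without any other single array of SVZ or cerebellum the adjusted p was 0.135 to 0.253. The kinase genes Mvk and Pmvk and the farnesyl diphosphate synthase gene Fdps lay between -0.61 and 0.42 in SVZ against cerebellum, with Pmvk lowest and Fdps highest, and between -0.25 and 0.074 in hippocampus.

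**Figure D2:**
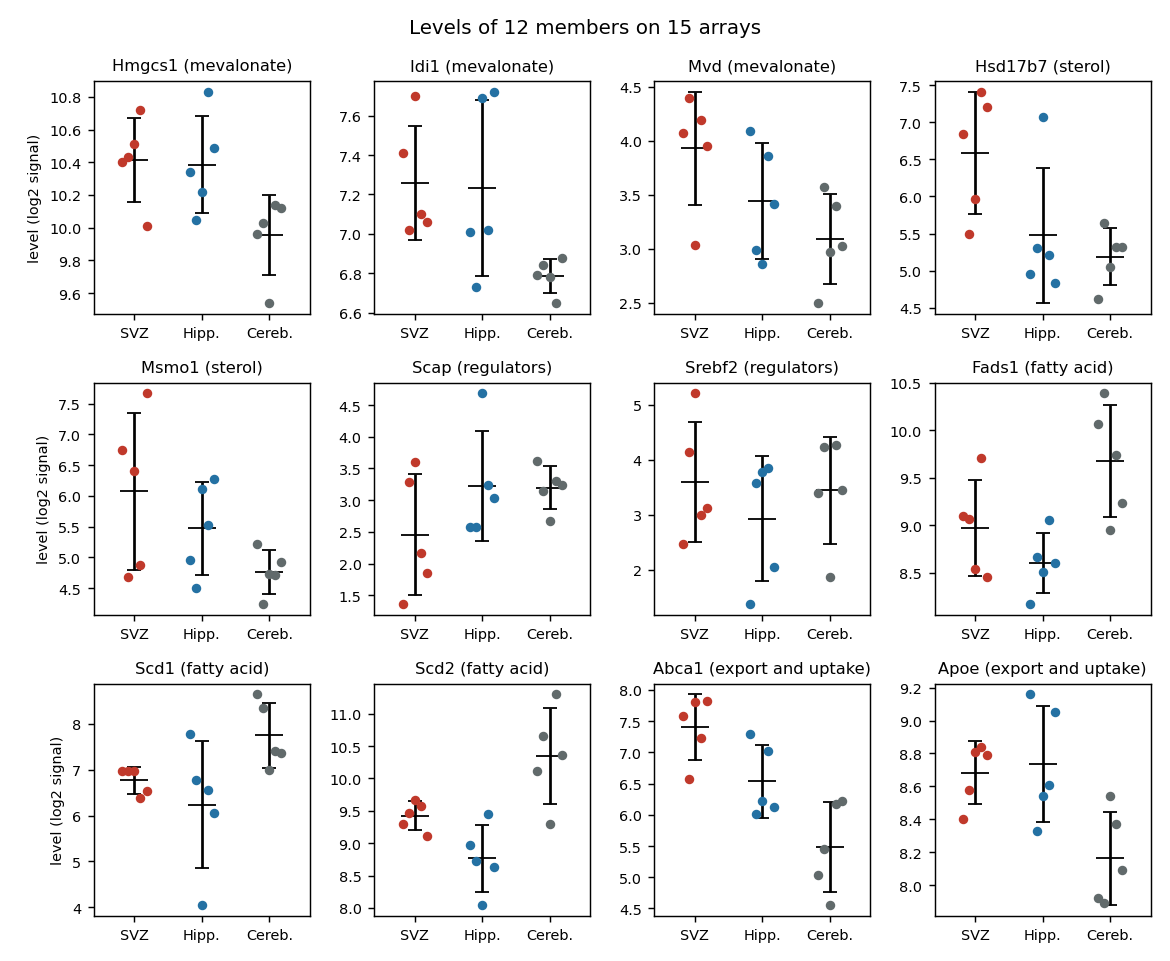
Level (log2 signal, vertical axis, a scale of its own in each panel) of the 12 genes given per array, with 1 point per array, a bar at the mean and whiskers of 1 SD (n = 5), for SVZ (red), hippocampus (blue) and cerebellum (grey). Abca1 reads 6.57 to 7.83 in SVZ and 4.55 to 6.22 in cerebellum, whereas Scd2 reads 8.04 to 9.45 in hippocampus and 9.30 to 11.30 in cerebellum.

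The sterol step, which turns farnesyl diphosphate into squalene, lanosterol and cholesterol, also passed in 0 of 10 genes in every comparison, with medians of 0.062 in SVZ and 0.39 in hippocampus against cerebellum. Hsd17b7, the keto reductase among the enzymes that take methyl groups off lanosterol, read 6.84, 5.50, 5.97, 7.41 and 7.21 in SVZ. It read 4.95, 5.31, 7.07, 5.21 and 4.84 in hippocampus, and 4.62, 5.64, 5.05, 5.32 and 5.32 in cerebellum. SVZ was the highest region, and SVZ 2 alone of its arrays fell within the cerebellum range, while hippocampus 3 stood with the SVZ arrays. The difference was 1.40 ± 0.44 in SVZ against cerebellum (adjusted p = 0.0864), 0.29 ± 0.44 in hippocampus against cerebellum (adjusted p = 0.724) and 1.11 ± 0.44 in SVZ against hippocampus (adjusted p = 0.622). Without SVZ 2 the first was 1.67 (adjusted p = 0.0413), and without any other single array of SVZ or cerebellum the adjusted p was 0.0782 to 0.170. With the mean of the Hsd17b7 probe sets that difference was 0.47 (adjusted p = 0.385), the second probe set by mean level differing by 0.080. The main Hsd17b7 probe set is of a kind that can bind transcripts of other genes, as are those used for Acly, Elovl5, Fads2 and Fdft1. Those used for Lss and Mvd are of a kind that matches several transcripts.

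Msmo1, the methylsterol monooxygenase, read 6.75, 4.68, 6.40, 4.87 and 7.67 in SVZ, 4.96, 4.50, 6.11, 5.52 and 6.28 in hippocampus, against 5.22, 4.24, 4.73, 4.71 and 4.93 in cerebellum. Of the SVZ arrays, 3 were above every cerebellum array and the other 2 lay among them. The differences against cerebellum were 1.31 ± 0.52 for SVZ (adjusted p = 0.170) and 0.71 ± 0.52 for hippocampus (adjusted p = 0.449). Its further probe set read 5.58, 4.27, 5.43, 4.79 and 3.95 in hippocampus and 3.84, 2.73, 3.39, 2.97 and 3.15 in cerebellum. There all hippocampus arrays were above all cerebellum arrays, by 1.59 ± 0.39 (adjusted p over all probe sets = 0.0400). On that probe set SVZ read 3.29, 4.53, 3.61, 2.35 and 3.38. It differed by 0.22 ± 0.39 from cerebellum and by -1.37 ± 0.39 from hippocampus (adjusted p over all probe sets 0.782 and 0.549). The main probe set gave 0.60 in SVZ against hippocampus, so the order of the regions rests on the probe set read.

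The other 8 sterol genes lay between -0.87 (Ebp) and 1.40 (Lss) in SVZ and between -0.87 (Sqle) and 1.19 (Fdft1) in hippocampus against cerebellum. Fdft1 makes squalene, Sqle oxidises it, Lss closes it into lanosterol and Ebp is a late isomerase. Lss varied most in SVZ, from 2.28 to 7.46, against 2.44 to 5.41 in cerebellum. Cyp51, the lanosterol demethylase, and Sc5d, a late sterol desaturase, differed by -0.12 and -0.40 in SVZ and by -0.37 and -0.13 in hippocampus, each against cerebellum.

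Further probe sets of Sc5d and Cyp51 were lower than in cerebellum. The second Sc5d probe set by mean level read 2.17, 1.00, 2.33, 1.97 and 1.01 in SVZ, 1.51, 1.23, 0.77, 1.55 and 2.69 in hippocampus, against 4.25, 4.39, 2.61, 3.13 and 3.44 in cerebellum. All SVZ arrays were below all cerebellum arrays, and hippocampus 5 overlapped cerebellum 3. The differences were -1.87 ± 0.42 in SVZ (adjusted p over all probe sets = 0.0221) and -2.01 ± 0.42 in hippocampus (0.0155). The dimmest Sc5d probe set fell by 1.36 on the log2 scale in SVZ (0.0496), and the dimmest of Cyp51 fell by 0.91 in hippocampus (0.0191). On these 3 probe sets all SVZ and hippocampus arrays read under 3, near the array background. Against cerebellum, 0 of 42 further probe sets of 24 lipid genes were higher and 2 lower for SVZ, and 1 was higher and 2 lower for hippocampus. Of all probe sets 0.722% were higher and 3.29% lower for SVZ, and 0.54% higher and 2.85% lower for hippocampus, while in SVZ against hippocampus 0 of the 42 passed, where 0.00444% were higher and 0.00222% lower.

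The regulators passed in 0 of 4 genes in every comparison. Srebf2, the SREBP gene of the cholesterol branch, read 2.47, 4.14, 5.21, 3.00 and 3.13 in SVZ, 1.38, 3.58, 3.78, 3.85 and 2.06 in hippocampus, against 3.40, 4.24, 1.88, 4.27 and 3.45 in cerebellum. Scap, the escort gene, read 1.36, 3.29, 3.61, 2.17 and 1.85 in SVZ, 2.58, 2.58, 4.69, 3.24 and 3.03 in hippocampus, against 3.62, 3.15, 2.67, 3.31 and 3.24 in cerebellum. Scap had a mean under 3, and the regions overlapped for both genes, with differences in SVZ against cerebellum of 0.14 ± 0.63 (adjusted p = 0.914) for Srebf2 and -0.74 ± 0.46 (adjusted p = 0.374) for Scap. Srebf1, which drives fatty acid synthesis, ranged from 2.33 to 5.38 in SVZ, 4.23 to 4.94 in hippocampus and 2.19 to 5.42 in cerebellum. Insig1, which retains the SREBP complex and is itself an SREBP target, averaged 6.86 ± 0.51 in SVZ, 6.87 ± 0.39 in hippocampus and 6.57 ± 0.78 in cerebellum (SD, n = 5).

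In fatty acid synthesis Scd2 was lower in hippocampus than in cerebellum, and 0 of the other 9 genes passed. Scd2, the stearoyl-CoA desaturase form of the mouse brain that makes monounsaturated fatty acids, read 9.29, 9.47, 9.67, 9.58 and 9.11 in SVZ. It read 8.97, 8.73, 8.04, 9.45 and 8.63 in hippocampus, and 10.11, 10.66, 9.30, 11.30 and 10.36 in cerebellum. Cerebellum was the highest region, but cerebellum 3 lay below hippocampus 4 and below 3 of the SVZ arrays. Scd2 was 2.99-fold lower in hippocampus than in cerebellum (-1.58 ± 0.33, adjusted p = 0.0116), and differed by -0.92 ± 0.33 in SVZ (adjusted p = 0.122). The SVZ value was -1.18 without cerebellum 3, the lowest cerebellum array (adjusted p = 0.0355). Without any other single array of SVZ or cerebellum its adjusted p was 0.135 to 0.252. SVZ against hippocampus gave 0.66 ± 0.33 (adjusted p = 0.709).

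Its other 2 probe sets also read lower than in cerebellum, by -1.44 and -0.76 in SVZ and by -1.45 and -1.33 in hippocampus, none past the threshold. The hippocampus call ended without cerebellum arrays 4 and 5 (-1.26, adjusted p = 0.0974) and with the spike-in level as a covariate (-1.25, adjusted p = 0.292), and held without any 1 array (adjusted p 0.00239 to 0.0366). The spike-in level was lowest in cerebellum, as given above, and its part in the result was not tested beyond that covariate.

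Scd1, the paralog of Scd2, read 6.98, 6.98, 6.98, 6.38 and 6.54 in SVZ, 7.78, 6.77, 4.04, 6.55 and 6.05 in hippocampus, against 8.65, 8.35, 6.99, 7.42 and 7.37 in cerebellum. The SVZ arrays all lay below the cerebellum arrays, though 3 of them by little from cerebellum 3, and hippocampus 3 was far below the rest. The differences against cerebellum were -0.98 ± 0.54 for SVZ (adjusted p = 0.317) and -1.52 ± 0.54 for hippocampus (adjusted p = 0.135). As the sequences of Scd1 and Scd2 are alike, signal shared between their probe sets was not tested.

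Fads1, a desaturase that adds double bonds to polyunsaturated fatty acids, read 9.10, 9.07, 8.54, 9.71 and 8.46 in SVZ, 8.17, 8.67, 8.51, 9.05 and 8.60 in hippocampus, against 10.06, 10.39, 8.95, 9.74 and 9.23 in cerebellum. Hippocampus 4 alone of the hippocampus arrays reached the cerebellum range, by passing cerebellum 3. The differences against cerebellum were -0.70 ± 0.30 for SVZ (adjusted p = 0.199) and -1.07 ± 0.30 for hippocampus (adjusted p = 0.0565). Without cerebellum 3, the lowest cerebellum array, the hippocampus difference was -1.26 (adjusted p = 0.0297). Without any other single array of hippocampus or cerebellum Fads1 was not called. Its further probe set went the other way, at 1.59 in SVZ and 2.14 in hippocampus, so the direction for Fads1 rests on which probe set is read: the mean of both gave 0.45 in SVZ and 0.53 in hippocampus.

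Of the other fatty acid genes, Acsbg1, an acyl-CoA synthetase enriched in astrocytes, had the largest difference in hippocampus. It averaged 5.89 ± 1.29 in SVZ, 5.32 ± 0.93 in hippocampus and 7.02 ± 0.38 in cerebellum (SD, n = 5), a difference from cerebellum of -1.12 ± 0.56 for SVZ (adjusted p = 0.268) and -1.70 ± 0.56 for hippocampus (adjusted p = 0.106). Without hippocampus 1, the highest hippocampus array, it was -2.10 in hippocampus (adjusted p = 0.0414). Without any other single array of hippocampus or cerebellum Acsbg1 was not called. Elovl6, which lengthens saturated fatty acids, ranged from 2.33 to 3.11 in SVZ, 1.62 to 5.17 in hippocampus and 2.07 to 3.43 in cerebellum, with the hippocampus arrays the most spread. Its difference in SVZ against hippocampus was -1.22 ± 0.54 (adjusted p = 0.699), and in hippocampus against cerebellum it was 0.96 ± 0.54 (adjusted p = 0.325). The latter was 1.53 without hippocampus 3, the lowest hippocampus array (adjusted p = 0.0312). Without any other single array of hippocampus or cerebellum Elovl6 was not called.

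Of the genes that make palmitate, Fasn and Acaca lay above 0 in hippocampus without passing, and Acly lay near 0. Fasn, the fatty acid synthase, differed by 0.82 ± 0.47 for SVZ (adjusted p = 0.335) and 0.80 ± 0.47 for hippocampus (adjusted p = 0.350), each against cerebellum. Acaca, the acetyl-CoA carboxylase, differed by 0.21 ± 0.45 for SVZ (adjusted p = 0.808) and 0.95 ± 0.45 for hippocampus (adjusted p = 0.254). Its further probe set, of nearly the same mean level (3.81 against 3.91), gave 0.34 and -0.30, so its direction in hippocampus rests on the probe set read. Acly, which supplies acetyl-CoA from citrate, differed by -0.34 and 0.032, and its second probe set by mean level by 0.33 and 0.91. Elovl5 and Fads2, which lengthen and desaturate polyunsaturated fatty acids, differed by 0.40 and 0.32 in SVZ and by 0.096 and 0.24 in hippocampus.

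Cnp, a myelin enzyme gene counted among oligodendrocyte markers, was lower beside Scd2, by -2.02 ± 0.26 for SVZ (adjusted p = 0.000315) and -2.97 ± 0.26 for hippocampus (adjusted p = 8.26e-06), each against cerebellum. The log2 of the summed signal of the 6 measured markers was 7.89 to 8.88 in SVZ, 6.71 to 8.06 in hippocampus and 9.96 to 10.41 in cerebellum. That sum is mostly Cnp, at 8.15 in SVZ, 7.20 in hippocampus and 10.18 in cerebellum, and Cnp was the 1 marker of the 6 that was called. Mbp and Mobp, which encode myelin proteins, lay the other way without passing, at 2.37 and 1.55 in SVZ and 0.16 and 0.61 in hippocampus against cerebellum, and Mog, Mag and Myrf were under 2 on all arrays of every region. The part of such cells in the Scd2 result was not tested. Among the astrocyte markers Slc1a3, the glutamate transporter, was lower in both forebrain regions and Aldoc in hippocampus, and the other 6 of 8 were called in neither. In pooled bulk RNA, fewer cells of a type and less RNA per cell cannot be told apart.

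In export and uptake all 4 genes lay above 0 against cerebellum in SVZ and in hippocampus, where 10279 and 10155 of all 18193 genes did, and Abca1 passed in SVZ. Of the 4, Lpl and Abcg1 read near background, and the sign of Abca1 in hippocampus rests on the probe set read, as given below. Abca1 read 7.59, 6.57, 7.81, 7.23 and 7.83 in SVZ, 7.30, 6.02, 6.22, 7.03 and 6.12 in hippocampus, against 5.03, 5.45, 4.55, 6.18 and 6.22 in cerebellum. Every SVZ array was above every cerebellum array, and hippocampus lay between, with 3 of its arrays at the level of cerebellum 4 and 5. It was 3.78-fold higher in SVZ than in cerebellum (1.92 ± 0.37, adjusted p = 0.00789). The difference was 1.05 ± 0.37 in hippocampus against cerebellum (adjusted p = 0.133) and 0.87 ± 0.37 in SVZ against hippocampus (adjusted p = 0.679).

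The SVZ call held without any 1 array (1.69 to 2.13, adjusted p 0.00476 to 0.0234) and ended with the spike-in level as a covariate (2.15, adjusted p = 0.0856). With the mean of its 3 probe sets it was 1.15 in SVZ (adjusted p = 0.0312), and -0.31 in hippocampus. The second Abca1 probe set by mean level differed by 1.21 in SVZ and by -1.34 in hippocampus against cerebellum (adjusted p over all probe sets 0.258 and 0.214). In SVZ against hippocampus it differed by 2.55 with no overlap between the arrays (adjusted p over all probe sets = 0.400), so the place of hippocampus between the other regions rests on the probe set read.

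Apoe, the carrier that takes up the exported cholesterol, read 8.40, 8.58, 8.81, 8.84 and 8.79 in SVZ, 9.16, 8.33, 8.54, 8.61 and 9.05 in hippocampus, against 7.92, 7.89, 8.54, 8.37 and 8.09 in cerebellum. Cerebellum 3 reached into the range of both other regions, and cerebellum 4 into that of hippocampus. The differences against cerebellum were 0.52 ± 0.19 for SVZ (adjusted p = 0.133) and 0.58 ± 0.19 for hippocampus (adjusted p = 0.105), and both passed with quantile normalization, at 0.88 (adjusted p = 0.0249) and 0.93 (adjusted p = 0.0194). Abcg1, a further cholesterol exporter, read 4.99 on SVZ 3, between 2.07 and 2.26 on SVZ 5, hippocampus 2 and cerebellum 5, and under 2 on the other 11 arrays. Lpl, the lipoprotein lipase gene, was under 2 on all 15 arrays.

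**Figure D3:**
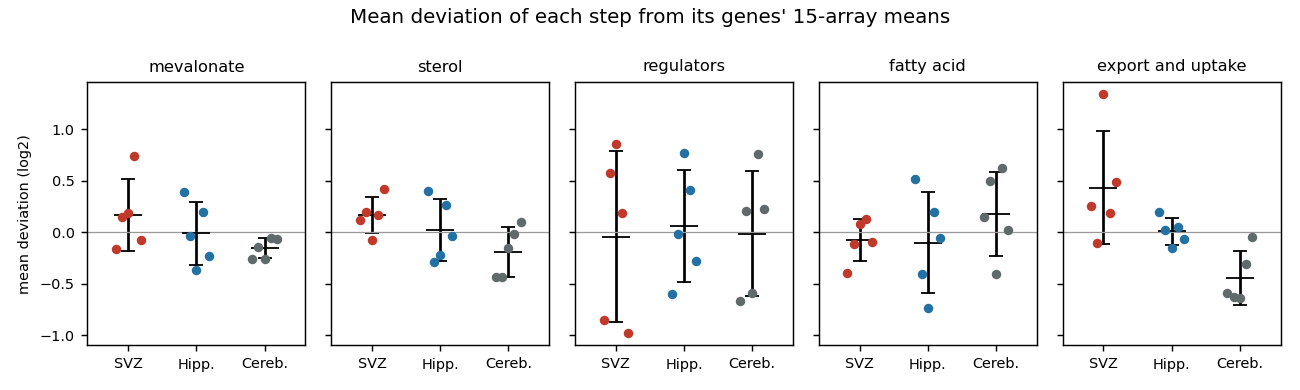
Mean deviation (log2) of the genes of each step from their own means over 15 arrays, 1 point per array, with a bar at the mean and whiskers of 1 SD (n = 5) for SVZ (red), hippocampus (blue) and cerebellum (grey). Export and uptake spans -0.11 to 1.34 in SVZ (SVZ 3, where Abcg1 reads 4.99, with the next array at 0.49), -0.15 to 0.20 in hippocampus and -0.64 to -0.04 in cerebellum.

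Microglia, the brain's immune cells, also express Abca1 and Apoe, and some of their markers were higher in the forebrain regions. The log2 of the summed signal of 10 microglia markers was 7.34 to 11.62 in SVZ, 6.89 to 10.11 in hippocampus and 4.78 to 7.02 in cerebellum. Of the 10, 3 were higher in SVZ (Csf1r, C1qa, Ctss) and 1 in hippocampus (Csf1r), and the others did not pass. Those not passing in SVZ ran from P2ry12 at -0.016 to C1qc at 3.46 (adjusted p = 0.0701), with Aif1 at 3.03 (adjusted p = 0.0528). The median difference of the 10 from cerebellum was 2.85 in SVZ and 1.32 in hippocampus. Csf1r, the receptor that sustains microglia, stood at 5.34 ± 0.92 for SVZ (adjusted p = 0.00340) and 4.23 ± 0.92 for hippocampus (adjusted p = 0.0162). Tmem119 was under 2 on all arrays of every region, Trem2 on all SVZ arrays, and Cx3cr1, C1qa, Aif1 and Trem2 on all cerebellum arrays. SVZ 3 and SVZ 5, with the highest microglia signals of all arrays, 11.30 and 11.62, also had the highest Abca1, 7.81 and 7.83. Hippocampus 3, the highest of its region at 10.11, had Abca1 at 6.22. SVZ 1 had the lowest microglia signal of its region, 7.34, with Abca1 at 7.59, and hippocampus 4 had 6.89 with Abca1 at 7.03. Cerebellum 3, the highest of its region, had 7.02 with Abca1 at 4.55. Apoe read 8.40 on SVZ 1, the lowest of SVZ, and 8.61 on hippocampus 4, against 8.54 on cerebellum 3, the highest of cerebellum. Csf1r read 5.97 on SVZ 1, 5.18 on hippocampus 4 and 4.10 on cerebellum 3, so these arrays are near each other in the summed signal but less so in Csf1r. The part of microglia in the Abca1 and Apoe results was not tested. Among 6 markers of oligodendrocyte precursors Olig1 was higher in both regions and Olig2 in SVZ, with log2 summed signals of 6.10 to 7.47 in SVZ, 5.58 to 6.57 in hippocampus and 3.60 to 3.83 in cerebellum. Of 6 neuron, 6 endothelial, 4 ependymal and 4 choroid plexus markers 0 were called. Choroid plexus log2 summed signals were nonetheless uneven, at 6.07 to 10.36 in SVZ, 11.18 to 13.98 in hippocampus and 6.93 to 14.02 in cerebellum. Ttr, the brightest of them, averaged 8.40, 12.82 and 11.89 in these regions. All its SVZ values were below all hippocampus values (-4.42, adjusted p = 0.451). Rarres2, of the ependymal list, lay wholly below cerebellum in SVZ (-2.02, adjusted p = 0.146). The part of such cells was not tested.

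**Figure D4:**
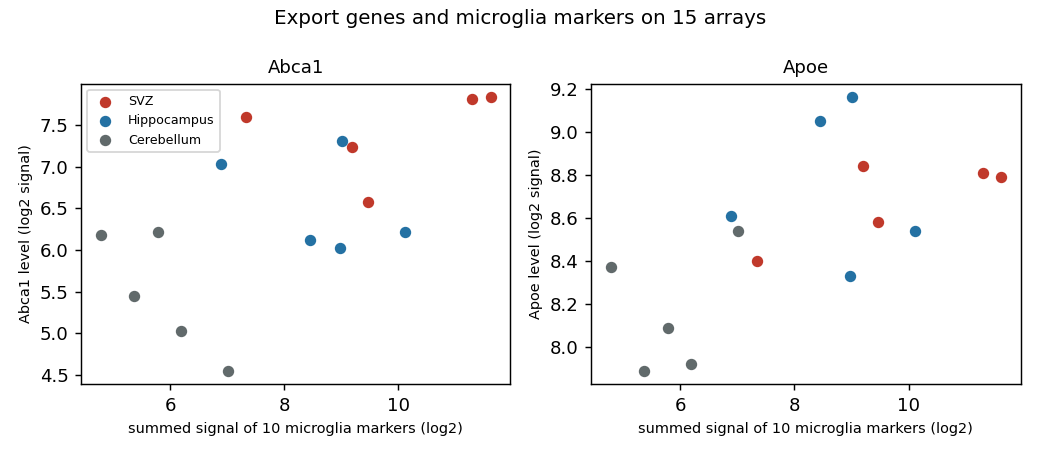
Level (log2 signal, vertical axis) of Abca1 (left) and Apoe (right) against the log2 of the summed signal of 10 microglia markers (horizontal axis), 1 point per array, for SVZ (red), hippocampus (blue) and cerebellum (grey). SVZ 1 and hippocampus 4, at marker sums of 7.34 and 6.89, read 7.59 and 7.03 for Abca1, above all cerebellum arrays, and 8.40 and 8.61 for Apoe, where cerebellum 3 reads 8.54. SVZ 3 and SVZ 5, at the highest marker sums, 11.30 and 11.62, have the highest Abca1, 7.81 and 7.83.

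Other genes of lipid metabolism were read beside the 34. Of 77 further genes listed, 69 were measured, and against cerebellum SVZ had 6 higher and 7 lower, hippocampus 6 higher and 5 lower, with 0 in SVZ against hippocampus. The corresponding shares of all genes are the 1.03% and 4.47% and the 0.808% and 3.97% given above. Of genes with a mean level above 3 they are 2.35% and 9.99%, and 1.76% and 9.14%. The list was chosen with earlier results of these data known, so its counts are a description and not a test. Of the 69 genes 16 passed in at least 1 comparison. The median of all 69 was 0.008 in SVZ and -0.070 in hippocampus against cerebellum.

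Fabp7, the brain fatty acid carrier of radial glia and astrocytes, read 9.42, 9.99, 9.74, 9.61 and 9.18 in SVZ, 9.90, 8.65, 9.05, 9.53 and 9.59 in hippocampus, against 11.95, 11.98, 12.27, 12.01 and 12.03 in cerebellum. It was lower by -2.46 ± 0.22 for SVZ (adjusted p = 1.64e-05) and -2.70 ± 0.22 for hippocampus (adjusted p = 4.71e-06), with a wide gap between the regions and cerebellum. Elovl2, which lengthens polyunsaturated fatty acids, read 3.47, 4.47, 6.05, 4.73 and 4.00 in SVZ, 3.37, 2.64, 3.80, 4.38 and 4.75 in hippocampus, against 6.64, 6.52, 6.72, 7.50 and 6.98 in cerebellum. It was lower by -2.33 ± 0.46 for SVZ (adjusted p = 0.00875) and -3.08 ± 0.46 for hippocampus (adjusted p = 0.00114), again with no overlap. Fads6, of the desaturase family, was lower by -1.39 ± 0.19 for SVZ (adjusted p = 0.000495) and -1.04 ± 0.19 for hippocampus (adjusted p = 0.00445), with levels of 1.64 to 2.22 in SVZ, 1.97 to 2.78 in hippocampus and 3.05 to 3.67 in cerebellum. Lcat, which esterifies cholesterol on lipoprotein particles, was lower in hippocampus at -2.57 ± 0.56 (adjusted p = 0.0173), and differed by -1.90 ± 0.56 in SVZ (adjusted p = 0.0677).

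Others were higher in both forebrain regions. Acsl6, an acyl-CoA synthetase of brain, read 8.71, 8.47, 9.21, 8.68 and 7.96 in SVZ, 8.39, 6.75, 8.16, 8.46 and 7.91 in hippocampus, against 6.65, 6.63, 6.01, 6.87 and 6.68 in cerebellum. It was higher by 2.04 ± 0.32 for SVZ (adjusted p = 0.00159) and 1.37 ± 0.32 for hippocampus (adjusted p = 0.0231), with hippocampus 2 alone overlapping cerebellum. Cyp7b1, an oxysterol hydroxylase, was higher by 2.05 ± 0.45 for SVZ (adjusted p = 0.0154) and 1.78 ± 0.45 for hippocampus (adjusted p = 0.0356). Clu, which encodes the lipid carrier clusterin, was higher by 0.67 ± 0.16 for SVZ (adjusted p = 0.0232) and 0.78 ± 0.16 for hippocampus (adjusted p = 0.0103), and Hacd2, a dehydratase of fatty acid elongation, by 2.45 ± 0.54 (adjusted p = 0.0155) and 2.46 ± 0.54 (adjusted p = 0.0165).

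The remaining calls were Fabp5, higher in both regions, Acsl3, higher in SVZ, and Acss2, higher in hippocampus. Ggps1, Vldlr, Hadha and Thrsp were lower in SVZ, and Mid1ip1 in hippocampus. Fabp5 is a fatty acid carrier, Acsl3 and Acss2 activate fatty acids and acetate, Vldlr is a receptor for ApoE particles, and Hadha is an enzyme of fatty acid oxidation.

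**Figure D5:**
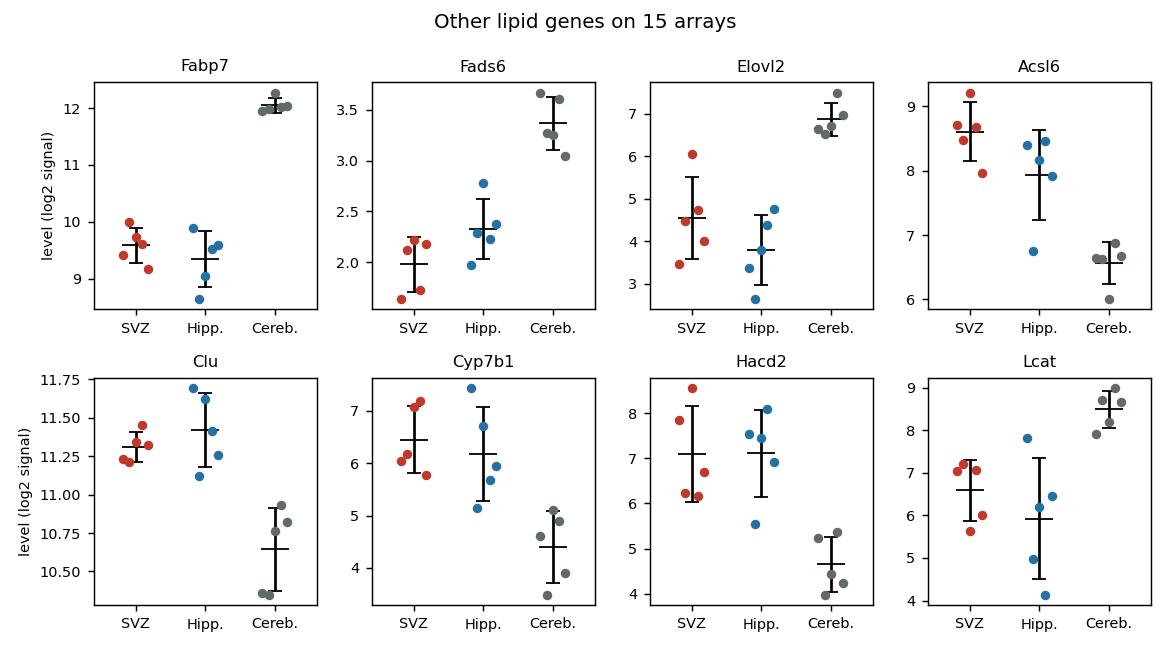
Level (log2 signal, vertical axis, a scale of its own in each panel) of 8 other lipid genes, 1 point per array, with a bar at the mean and whiskers of 1 SD (n = 5), for SVZ (red), hippocampus (blue) and cerebellum (grey). Fabp7 reads 8.65 to 9.99 in the forebrain regions and 11.95 to 12.27 in cerebellum, and Acsl6 is higher in SVZ than on any cerebellum array.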

How the data were processed

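The titles gave each array its region. RNA was extracted with Trizol and a column kit, copied and amplified by WT-Ovation Pico, then labelled with biotin, per the labels' protocols. The deposited values are log2 signals from RMA, per the submitters' processing notes. Its version and the log base are not stated there, and the base was taken from the range of the values. They were used as deposited, with no floor, and their number limits the precision.

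Of 45101 probe sets, 34958 carried 1 gene symbol, 932 several, and 64 were controls, kept out of the tests, 24 of them spike-ins. Each gene was read from its brightest probe set by mean. limma 3.58.1 in R 4.3.3, with the package data.table (1.17.8), fitted region over all 15 arrays, with Benjamini-Hochberg adjustment over 18193 genes and a threshold of 0.05. The fit was tested on simulated data in which the regions had the same spread, unlike the arrays here, so the effect of unequal spread was not tested. Promoters came from RefSeq (GRCm38.p6). Figures used matplotlib 3.10.9 in Python 3.11.15.

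The genes, lists and tests were chosen with earlier results of these data known. Values per array were given for genes called, for genes with no overlap in a comparison, and for the 2 of smallest unadjusted p in each step, with at most 8 of the further lipid genes. Alternatives were the replicate block, quantile normalization, median centring, dim genes left out, the mean of probe sets, array weights, a trended spread, only 2 regions, the spike-in covariate, cerebellum 4 and 5 left out, the series thresholds and each array left out. Nothing in the labels says that arrays of one number share animals, so p values measure the spread between pools. The deviations of same-numbered arrays correlated weakly, which does not settle whether those arrays share animals.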

Additional observations from a re-analysis of the deposited data

Results flagged for a closer look

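In 7 of 102 groups of 5 arrays (34 genes in 3 regions), 1 array stood apart from the other 4, with a gap to its neighbour of over 0.71 of the range, where chance gives about 1 in 20. On SVZ 4, Fdft1 read 4.93, where the nearest SVZ array read 7.87, and Sqle read 5.81, where the nearest read 4.13. On SVZ 3, Abcg1 read 4.99, against 2.07 on the nearest. In hippocampus, Hsd17b7 read 7.07 on array 3 (nearest 5.31), Ebp 2.47 on array 5 (nearest 1.46) and Abcg1 2.26 on array 2 (nearest 1.06). In cerebellum, Mvk read 4.15 on array 1 (nearest 3.64).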

How the results depend on the processing

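In SVZ against cerebellum the count of lipid genes called was 1, and 3 with quantile normalization (Abca1, Apoe, Hsd17b7), 3 with the mean of probe sets (Abca1, Sc5d, Scd2), 0 with the spike-in covariate, 0 at the series thresholds and 1 to 2 with each array left out. In hippocampus against cerebellum it was 1, and 3 with quantile normalization (Abca1, Apoe, Scd2). It was 2 with median centring (Fads1 added), the mean of probe sets (Elovl6), array weights (Acsbg1) or only the 2 regions (Acsbg1). It was 0 with the spike-in covariate, without cerebellum 4 and 5 or at the series thresholds, and 1 to 2 with each array left out. In SVZ against hippocampus it was 0 in every setting run, 0 to 0 with each array left out, with 2 up and 1 down at an unadjusted p under 0.05. The replicate block gave 2 calls in hippocampus against cerebellum, adding Fads1 (-1.07, adjusted p = 0.0361), and changed no other call. Same-numbered arrays correlated between -0.12 and 0.14 in their deviations, which cannot show whether they share animals or a day. Array 2 had the lowest spike-in mean of its region in SVZ (11.07) and in hippocampus (11.50), but not in cerebellum (10.94).

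The median difference was 0.63 with quantile normalization and 0.076 to 0.34 with each array left out in SVZ. In hippocampus it was 0.58 with quantile normalization, 0.36 without cerebellum 4 and 5, and 0.10 to 0.34 with each array left out. In SVZ against hippocampus it was -0.033 with the mean of probe sets and -0.028 to 0.21 with each array left out. With the mean of probe sets the sign against cerebellum turned for 5 of the 34 genes in SVZ, Fads1 (0.45), Hmgcs1 (-0.014), Acly (0.14), Elovl6 (0.13) and Fads2 (-0.097). It turned for 5 in hippocampus, Fads1 (0.53), Abca1 (-0.31), Elovl5 (-0.14), Mvk (0.063) and Srebf2 (0.057), and for 7 in SVZ against hippocampus. The cause was not tested.

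Calls over all genes against cerebellum were 1002 in SVZ and 869 in hippocampus, and 609 and 492 with quantile normalization, 191 and 220 with the spike-in covariate, 584 and 522 at the series thresholds, and 368 and 358 without cerebellum 4 and 5. They were 1561 and 1225 with array weights, 1353 and 1151 with the mean of probe sets, 1247 and 1056 with only the 2 regions, and 1186 and 1062 with median centring. Median centring moved the median of all genes from 0.068 to -0.036 in SVZ and to -0.044 in hippocampus. Levels near background limit Abcg1, Ebp, Fdps, Lpl and Scap.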
